A study of Mus musculus with 10 samples.

Results

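Genes of the cell cycle and of DNA replication were followed in macrophages from mouse skin wounds and from culture, each isolated by flow cytometry as Eff+ and Eff- cells. The set holds 36 genes among the 55414 gene identifiers of the count tables: 15 genes of S phase, when DNA is copied, and 21 genes of G2 phase and mitosis (G2/M). They were found by matching Ensembl identifiers to mouse gene symbols, and each of the 36 had an identifier. The series concerns efferocytosis, the uptake of apoptotic cells, and its design separates Eff+ from Eff- cells without spelling the marks out. The wound groups were Eff+ (3 libraries) and Eff- (3 libraries) macrophages collected 3 days after wounding from LysMCreER/mTmG mice given tamoxifen for 6 days. In these mice a tamoxifen-dependent Cre recombinase under the lysozyme M promoter, which is active in macrophages and neutrophils, switches a membrane-bound fluorescent reporter. The culture groups were Eff+ (2 libraries) and Eff- (2 libraries) macrophages grown from the bone marrow of wild type mice with GM-CSF, a myeloid growth factor, for 7 days. Labels list 12 h with apoptotic fibroblasts for both culture groups, but NOAC appears in the names of the Eff- columns, and whether those cells had met apoptotic cells is unclear.

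Cells that leave rest pass through G1 into S phase. There cyclin E with its kinase, and the E2F transcription factors released from the retinoblastoma protein, turn on the machinery that unwinds and copies DNA. In G2 and mitosis cyclin A and cyclin B with CDK1, the Aurora and Polo-like kinases, kinesin motors and the spindle checkpoint build the spindle and separate the chromosomes. Many macrophages of an early wound arise from blood monocytes, while GM-CSF is a growth factor for myeloid cells in marrow cultures. Genes of both phases are repressed in resting cells by the DREAM complex, which meets DNA at E2F sites and at the cell cycle genes homology region (CHR), often beside a CCAAT box.

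Promoters of both phases are shown because the motif letters they hold differ by phase. RefSeq promoter windows, which run 250 bases before to 50 bases after the gene start, were at hand for 29 of the 36 genes (12 of S phase and 17 of G2/M) and for 27025 genes in all. Shares below are of genes, each counted once if any of its windows holds the letters, and Mcm7 had 2 windows. The letters searched, on both strands, were TTTGGCGC, TTTCCCGC, TTTCGCGC and TTTGCCGC for E2F, TTTGAA and TTTAAA for the CHR, and CCAAT for the CCAAT box, and matches of one kind may overlap. E2F letters stood in 5 of 12 S phase genes (41.7%), in 1 of 17 G2/M genes (5.88%) and in 2.6% of all genes. Among the 12, the E2f1 window reads in frame as protein-coding sequence. It may therefore lie past the promoter, and its lack of matches does not describe the E2f1 promoter. CHR letters stood in 4 of 12 S phase genes (33.3%), in 15 of 17 G2/M genes (88.2%) and in 30.6% of all genes. CCAAT stood in 8 of 12 S phase genes (66.7%), in 15 of 17 G2/M genes (88.2%) and in 41.1% of all genes. CHR letters and CCAAT together stood in 3 of 12, 14 of 17 (82.4%) and 13.4% of them. The windows below are written 5′ to 3′ on the gene's strand, with the matched letters in capitals and coordinates on GRCm38.p6. Mcm6 (chr1:128359656-128359955, minus strand) and Mcm3 (chr1:20820263-20820562, minus strand), helicase subunits of S phase, hold E2F and CCAAT letters and no CHR letters. Cdk1 (chr10:69352863-69353162, minus strand), the kinase of mitotic entry, holds all 3 kinds. Ccnb1 (chr13:100786437-100786736, minus strand), a mitotic cyclin, and Bub1b (chr2:118597961-118598260, plus strand), a spindle checkpoint kinase, hold CHR and CCAAT letters and no E2F letters.
Mcm6: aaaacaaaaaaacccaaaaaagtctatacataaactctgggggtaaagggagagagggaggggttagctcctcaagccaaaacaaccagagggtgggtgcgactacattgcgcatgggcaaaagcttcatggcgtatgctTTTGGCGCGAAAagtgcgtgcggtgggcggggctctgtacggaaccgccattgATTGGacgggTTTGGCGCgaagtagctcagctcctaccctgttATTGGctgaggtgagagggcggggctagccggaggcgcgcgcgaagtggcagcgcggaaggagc
Mcm3: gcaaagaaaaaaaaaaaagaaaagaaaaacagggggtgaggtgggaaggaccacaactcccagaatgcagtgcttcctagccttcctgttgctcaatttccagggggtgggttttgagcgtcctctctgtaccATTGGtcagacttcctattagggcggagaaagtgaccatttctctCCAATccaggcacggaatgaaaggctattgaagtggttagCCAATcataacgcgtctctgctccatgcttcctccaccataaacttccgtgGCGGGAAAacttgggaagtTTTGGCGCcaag
Cdk1: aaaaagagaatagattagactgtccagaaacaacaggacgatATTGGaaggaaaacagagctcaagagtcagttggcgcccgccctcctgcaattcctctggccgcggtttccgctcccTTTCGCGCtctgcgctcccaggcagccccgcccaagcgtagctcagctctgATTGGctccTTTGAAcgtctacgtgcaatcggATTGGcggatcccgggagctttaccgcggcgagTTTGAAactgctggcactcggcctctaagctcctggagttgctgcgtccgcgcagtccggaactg
Ccnb1: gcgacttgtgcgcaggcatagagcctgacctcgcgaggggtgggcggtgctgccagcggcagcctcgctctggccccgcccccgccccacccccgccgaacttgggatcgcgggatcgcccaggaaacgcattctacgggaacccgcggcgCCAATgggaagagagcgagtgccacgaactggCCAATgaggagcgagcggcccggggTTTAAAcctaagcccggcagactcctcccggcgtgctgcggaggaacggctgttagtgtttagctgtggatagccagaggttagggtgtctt
Bub1b: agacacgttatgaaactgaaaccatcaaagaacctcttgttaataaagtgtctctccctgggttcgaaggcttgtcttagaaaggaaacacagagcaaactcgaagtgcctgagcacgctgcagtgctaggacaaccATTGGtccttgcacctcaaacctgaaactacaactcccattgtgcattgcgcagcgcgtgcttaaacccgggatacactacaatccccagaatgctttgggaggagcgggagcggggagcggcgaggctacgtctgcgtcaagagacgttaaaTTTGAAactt
A match is only a string of letters, and no binding was measured here.

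Wound libraries held 39735437 to 57308823 counts and culture libraries 17622740 to 27261880, and the lowest count of any of the 36 genes in a wound library was 6, for Cenpf. Levels are given as CPM (the share of a library's counts, as edgeR's cpm function gives it), scaled to the trimmed mean of M-values (TMM) library sizes of each table. All 36 genes passed the filter on low counts in both tables. Some libraries stood apart. Lyz2, the lysozyme gene of the Cre locus, had 4.97, 3417 and 8.90 CPM in wound Eff+ libraries 1, 2 and 3, and 3.93, 6567 and 3.67 CPM in wound Eff- libraries. Genes with at least 1 count numbered 35649 (Eff+) and 44836 (Eff-) in the culture libraries of replicate 1, while replicate 2 had 19649 (Eff+) and 18171 (Eff-). Results are therefore also given without these libraries. The labelled macrophage identity was checked with 12 macrophage markers. Their summed level was 22954 to 33293 CPM in wound Eff+ and 17402 to 24344 CPM in wound Eff- libraries, and 18574 to 64244 CPM in culture Eff+ and 5369 to 80754 CPM in culture Eff- libraries. The culture sum was mostly Lyz2, with 13606 and 54671 CPM in Eff+ and 3086 and 70844 CPM in Eff- libraries. Each of the 12 markers was lower in culture Eff- library 1 than in Eff- library 2, for example Cd68 with 463 and 2089 CPM. The wound sum was mostly Cd14, an endotoxin co-receptor, which rose, with 24667, 26181 and 19077 CPM in Eff+ against 11082, 10225 and 11363 CPM in Eff- libraries. Of the 12 markers 10 had wound log2 fold changes below 0 (median -0.91), and 4 of them fell: C1qa (-1.19) and C1qb (-1.22), chains of complement C1q, the mannose receptor Mrc1 (-1.03) and Adgre1 (-0.85), which encodes F4/80. Their part in the cell cycle values was not tested. In bulk libraries, fewer cycling cells and less of a transcript in each cycling cell cannot be told apart.

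The first comparison asked whether wound macrophages labelled Eff+ and Eff- differed in cell cycle genes. None of the 36 genes passed edgeR's quasi-likelihood test with Benjamini-Hochberg adjustment over all 14908 genes tested (adjusted p under 0.05), while 11.2% of all genes did, 1101 higher and 565 lower in Eff+. At an unadjusted p under 0.05 there were 4 of the 36 (Mcm6, E2f1, Mcm3 and Bub1b), against 29.9% of all genes, and DESeq2 called 2 of the 36 (Mcm6 and Bub1b, both lower in Eff+), against 22.3% of all genes in either direction and 8.58% lower. The phases leaned to opposite sides. Of the 15 S phase genes 13 had a log2 fold change below 0, with a median of -0.39, and of the 21 G2/M genes 13 had one above 0, with a median of 0.21, beside a median of -0.03 and 51.3% below 0 over all genes. The medians of the phases differed by -0.59 on the log2 scale (S phase minus G2/M). Over the leave-one-out fits this difference ran between -0.67 and -0.42. The G2/M median by itself did not keep its sign: it was -0.12 without Eff- library 3 and -0.19 with library totals as the only scaling. That scaling moved the median of all genes to -0.42, so that relative to it S phase genes stood at -0.37 and G2/M genes at 0.23. It also brought 5 of the 36 below the threshold (Mcm6, Mcm3, Pcna, E2f1 and Bub1b, each lower in Eff+), against 17.8% of all genes called lower and 4.79% called higher under it.

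**Figure D1:**
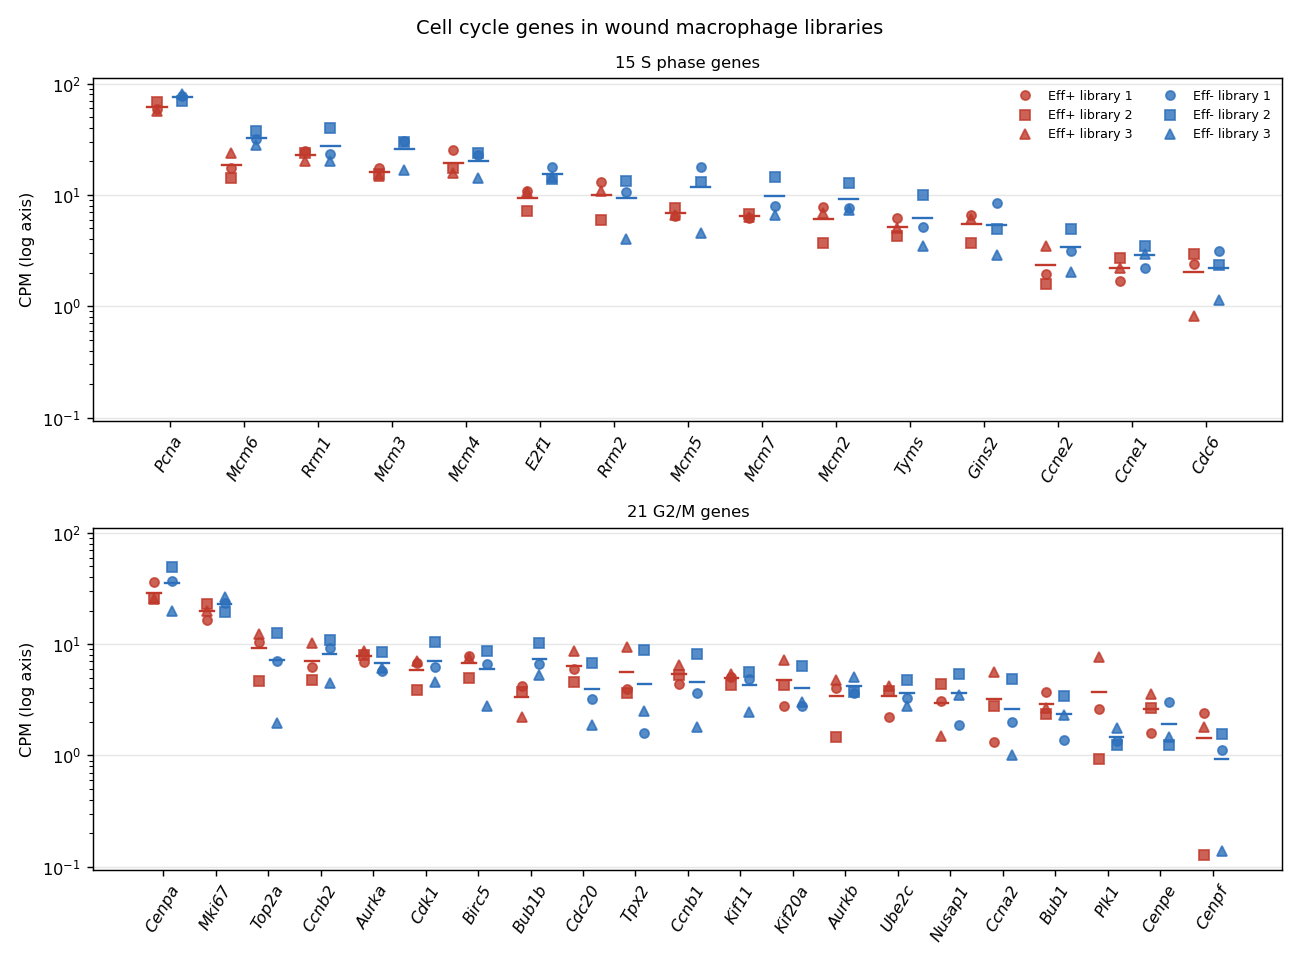
Levels of cell cycle genes in the 6 wound libraries, in CPM on a log axis, with a point for each library (its shape the library number) and a line at each group mean, Eff+ left of Eff- for each gene. Mcm6 lay between 14.2 and 24.0 CPM in Eff+ and between 28.3 and 37.6 CPM in Eff- libraries, while Mki67 overlapped.

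Mcm6 and Mcm5, subunits of the replicative helicase, had the lowest log2 fold changes among the S phase genes. Mcm6 (ENSMUSG00000026355, GRCm39 chromosome 1, 128259327 to 128287401), a subunit of the MCM2 to MCM7 ring that unwinds DNA, had 17.5, 14.2 and 24.0 CPM in Eff+ libraries, against 31.7, 37.6 and 28.3 CPM in Eff- libraries. Every Eff+ library lay below every Eff- library, with means of 18.5 ± 4.97 and 32.5 ± 4.71 CPM (SD, n = 3 each). Its log2 fold change was -0.81 (SE 0.23, 95% interval -1.35 to -0.27), with an adjusted p of 0.063 in edgeR, the smallest of the 36. Mcm3 (ENSMUSG00000041859, chromosome 1, 20873192 to 20890536), another subunit of the ring, had 17.6, 15.5 and 14.9 CPM in Eff+ libraries, against 30.6, 30.2 and 16.9 CPM in Eff- libraries. The Eff+ libraries were close together, and Eff- library 3 lay nearer to them than to the other Eff- libraries. The log2 fold change of Mcm3 was -0.70 (SE 0.26, edgeR adjusted p = 0.12). Mcm5, chosen after its values were seen, had 6.44, 7.61 and 6.59 CPM in Eff+ and 17.8, 13.2 and 4.52 CPM in Eff- libraries, where library 3 again was low. Without Eff- library 3 edgeR called Mcm3 and Mcm5 lower in Eff+, 2 of the 36, against 5.61% of all genes. Among the other ring subunits, Mcm7 and Mcm2 had log2 fold changes of -0.60 and -0.59, and Mcm4 had -0.06.

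Pcna (ENSMUSG00000027342, chromosome 2, 132091082 to 132095234), the sliding clamp of DNA polymerase, had 58.7, 68.8 and 57.4 CPM in Eff+ libraries, against 77.2, 69.3 and 80.7 CPM in Eff- libraries. Both groups were tight, and the highest Eff+ and lowest Eff- libraries, each numbered 2, nearly met. Its log2 fold change of -0.30 (95% interval -0.65 to 0.05, edgeR adjusted p = 0.24) lay within a 2-fold change in either direction. Per kilobase of exon Pcna had the highest level of the set, at 28.6 CPM per kb over the wound libraries, and Cenpf, a kinetochore protein, the lowest, at 0.077 CPM per kb. Rrm1, the large subunit of ribonucleotide reductase, which makes deoxynucleotides, had 25.0, 24.1 and 20.0 CPM in Eff+ and 23.1, 40.2 and 20.1 CPM in Eff- libraries. The groups overlapped, with Eff- library 2 apart, and the log2 fold change was -0.27 (SE 0.28). Its partner Rrm2 had a log2 fold change of 0.10, and Tyms, which makes thymidylate, -0.26.

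E2f1 (ENSMUSG00000027490, chromosome 2, 154401327 to 154411812), the transcription factor of S phase entry, had 10.8, 7.11 and 10.6 CPM in Eff+ libraries, against 17.9, 13.9 and 14.5 CPM in Eff- libraries. The groups did not overlap, and the log2 fold change was -0.70 (SE 0.24, edgeR adjusted p = 0.099). The E cyclins are partners of CDK2 at S phase entry. Ccne1 had 1.67, 2.70 and 2.20 CPM in Eff+ and 2.19, 3.46 and 2.94 CPM in Eff- libraries, a log2 fold change of -0.39 (SE 0.40). Ccne2 had 1.97, 1.59 and 3.49 CPM in Eff+ and 3.16, 4.99 and 2.02 CPM in Eff- libraries, a log2 fold change of -0.53 (SE 0.49). In both genes the groups overlapped. The remaining S phase genes were Cdc6, which loads the helicase, at -0.12, and Gins2, part of the active helicase, at 0.01.

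Among G2/M genes the proliferation antigen Mki67 (ENSMUSG00000031004, chromosome 7, 135291513 to 135318090) had 16.5, 23.2 and 20.0 CPM in Eff+ libraries, against 23.2, 19.3 and 26.3 CPM in Eff- libraries. The groups overlapped, and the log2 fold change of -0.20 had a 95% interval of -0.68 to 0.28. Top2a, the topoisomerase that untangles chromosomes, had 10.5, 4.63 and 12.3 CPM in Eff+ and 7.07, 12.7 and 1.95 CPM in Eff- libraries. The Eff- libraries spread more widely than the groups differed (log2 fold change 0.34, SE 0.63). Cenpa, the histone H3 variant of centromeres, had 35.8, 26.1 and 25.2 CPM in Eff+ and 37.0, 49.6 and 19.8 CPM in Eff- libraries (log2 fold change -0.29, SE 0.33). Ccnb2, a B cyclin, had 6.19, 4.74 and 10.3 CPM in Eff+ and 9.24, 10.9 and 4.50 CPM in Eff- libraries (log2 fold change -0.22, SE 0.42). For both of these the Eff+ values fell inside the Eff- range. Reads of Ccnb2 and Pcna could be split with the processed pseudogenes Ccnb2-ps and Pcna-ps2, which held 94 and 139 counts over the 6 wound libraries.

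Further G2/M genes, chosen after their values were seen, marked the ends of the range. Bub1b (ENSMUSG00000040084, chromosome 2, 118428692 to 118472072), the checkpoint kinase BUBR1, had 4.18, 3.71 and 2.20 CPM in Eff+ libraries, against 6.60, 10.2 and 5.28 CPM in Eff- libraries. Every Eff+ library lay below every Eff- library (log2 fold change -1.13, SE 0.38, edgeR adjusted p = 0.094). Plk1, the Polo-like kinase, had 2.62, 0.92 and 7.71 CPM in Eff+ and 1.35, 1.24 and 1.77 CPM in Eff- libraries. Eff+ library 3 stood far above the other 5 libraries, and the log2 fold change was 1.37 (SE 0.72, edgeR adjusted p = 0.25). Cdk1 had 6.74, 3.90 and 7.02 CPM in Eff+ and 6.18, 10.5 and 4.61 CPM in Eff- libraries, and Ccnb1 had 4.34, 5.27 and 6.50 CPM in Eff+ and 3.66, 8.15 and 1.79 CPM in Eff- libraries. Both overlapped. The other 13 G2/M genes (Aurka, Aurkb, Birc5, Bub1, Ccna2, Cdc20, Cenpe, Cenpf, Kif11, Kif20a, Nusap1, Tpx2 and Ube2c) had log2 fold changes between -0.28 and 0.70. In 4 of the 36 the groups did not overlap, in each with Eff+ below (Mcm6, E2f1, Pcna and Bub1b), against 36.8% of all genes without overlap, 18.1% with Eff+ below and 18.7% with Eff+ above. The 95% interval lay within a 2-fold change either way for 6 of the 36, reached 2-fold higher for 15 and reached 2-fold lower for 20.

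**Figure D2:**
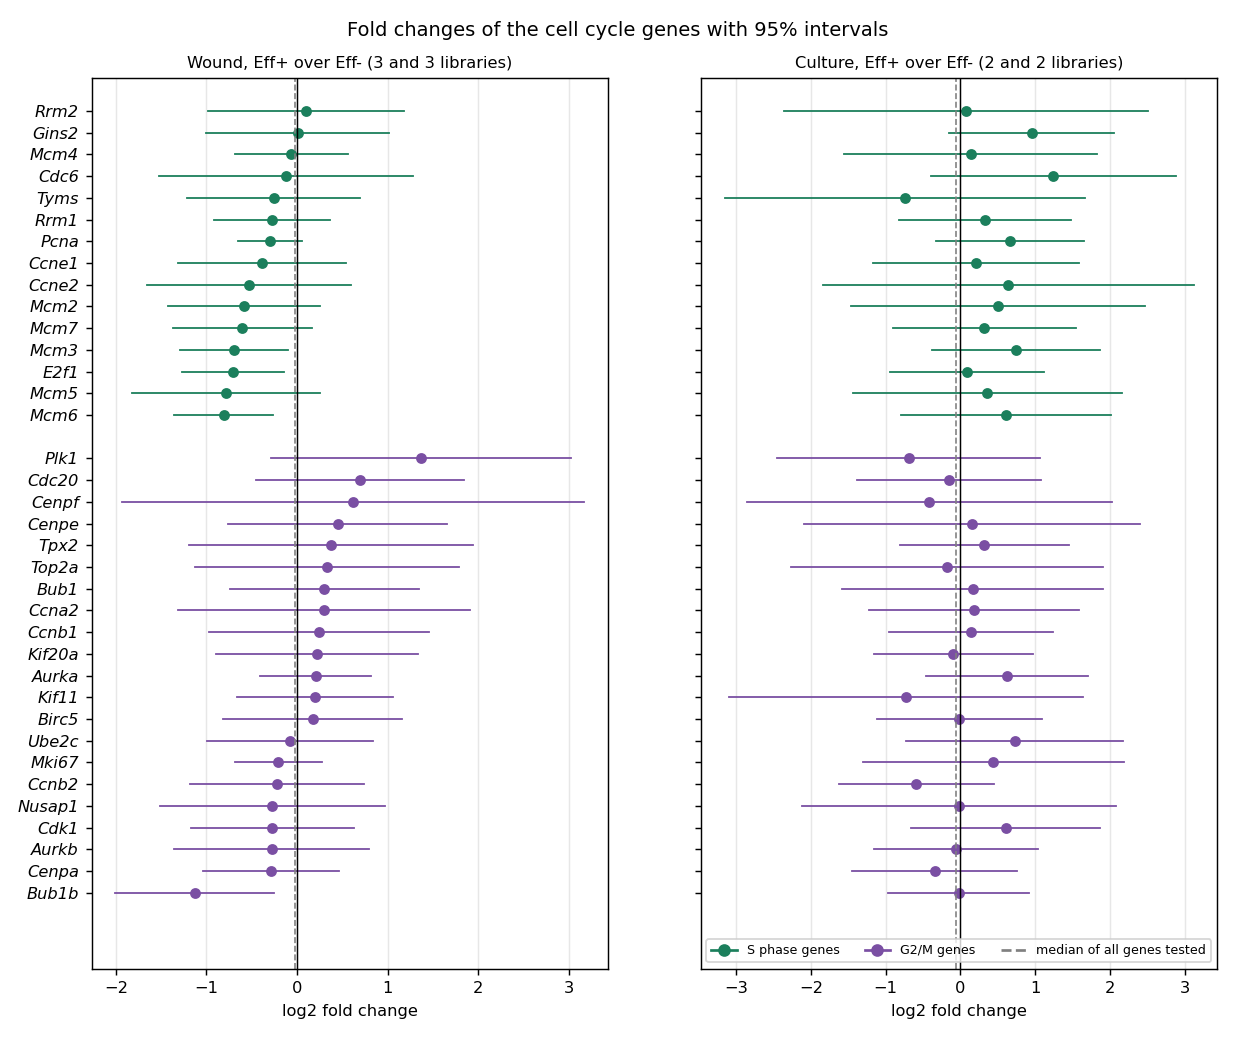
Log2 fold changes of Eff+ over Eff- with 95% intervals for the 36 genes, in wounds at left and in culture at right, S phase and G2/M genes in different colours and the median of all genes as a dashed line. In wounds 13 of 15 S phase genes lay below 0, and in culture 14 of 15 lay above 0, with none called in either.

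Sums over each phase were also taken by library. The 15 S phase genes summed to 207, 187 and 191 CPM in wound Eff+ libraries, and to 269, 294 and 210 CPM in wound Eff- libraries. The groups did not overlap, but Eff- library 3 came close to the Eff+ libraries. The 21 G2/M genes summed to 138, 120 and 162 CPM in Eff+, and to 135, 193 and 101 CPM in Eff- libraries, which overlapped on both sides. Within a library, the median log2 level of S phase genes minus that of G2/M genes was 0.81, 0.60 and -0.02 in Eff+, against 1.43, 0.93 and 1.12 in Eff- libraries. Eff+ values of this difference all lay below the Eff- values, but this separation depended on the measure. The S phase sum divided by the G2/M sum ran between 1.18 and 1.56 in Eff+ and between 1.53 and 2.08 in Eff- libraries, which overlapped. The groups also overlapped when this ratio was taken from levels per kilobase of exon. In both ratios the Eff+ mean was the lower. On the same TMM scale the 36 genes summed to 345, 306 and 353 CPM in Eff+ and 405, 487 and 311 CPM in Eff- libraries, which overlapped. As a share of all counts, without TMM scaling, they took 0.031, 0.025 and 0.032% in Eff+ and 0.046, 0.058 and 0.034% in Eff- libraries. With library totals as the only scaling the median log2 fold change of all genes was itself -0.42.

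**Figure D3:**
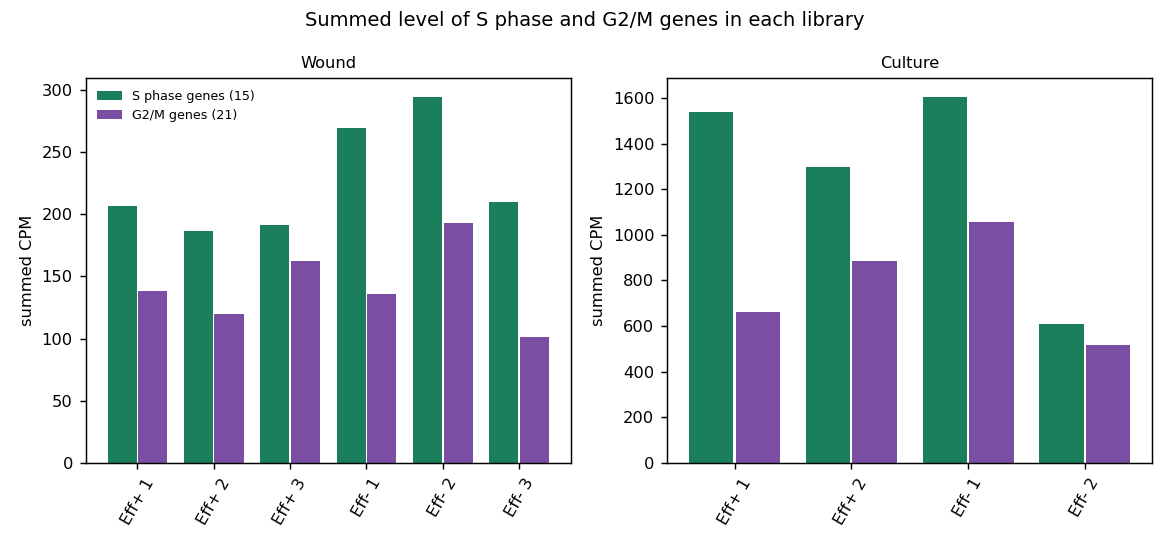
Summed CPM of the 15 S phase and the 21 G2/M genes in each of the 10 libraries, wound and culture, with Eff+ libraries left of Eff- libraries. Wound S phase sums were 187 to 207 CPM in Eff+ and 210 to 294 CPM in Eff-, and the culture Eff- library 2 was the lowest of its table at 611 CPM.

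Replicates of a group varied by phase. Among wound Eff- libraries, library 2 held the highest value for 9 of 15 S phase and 17 of 21 G2/M genes, and library 3 the lowest for 12 of 15 and 12 of 21. Among wound Eff+ libraries, library 3 held the highest value for 14 of 21 G2/M genes and for 2 of 15 S phase genes. The median ratio of the highest to the lowest replicate was 1.59 for S phase and 1.91 for G2/M genes in Eff+ (1.70 over all genes), and 1.99 and 2.44 in Eff- (1.65 over all genes). Without both libraries numbered 2, an exclusion chosen after seeing the data, 9 of 15 S phase genes lay below 0 with a median of -0.23, the G2/M median was 0.52, and none of the 36 was called (0% of all genes, with 2212 at an unadjusted p under 0.05).

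Genes outside the set but in the same pathway were read in lists for comparison, with calls counted over all genes. Of 39 other replication genes 30 had log2 fold changes below 0 (median -0.44), 2 fell and 1 rose, against 3.79% of all genes called lower and 7.39% called higher. The genes that fell were Rnaseh2a, part of the enzyme that removes RNA from DNA, with 8.89, 7.14 and 10.6 CPM in Eff+ against 16.7, 21.9 and 14.6 CPM in Eff- libraries (log2 fold change -1.0, SE 0.25, edgeR adjusted p = 0.043), and Rpa1, which coats single-stranded DNA (-0.86, SE 0.22, adjusted p = 0.043). Mcm10, a replication initiation factor, rose, with 8.16, 13.6 and 12.4 CPM in Eff+ against 2.38, 3.79 and 2.62 CPM in Eff- libraries (1.96, SE 0.32, edgeR adjusted p = 0.013). Of 40 other mitosis genes 4 rose and none fell (median 0.07). They were Cks2, a CDK adaptor (log2 fold change 1.6, SE 0.18), Cdc25b, a phosphatase that activates CDK1 (1.15, SE 0.28), Pttg1, securin (1.00, SE 0.24), and Hmmr, a spindle protein (1.67, SE 0.44). Cks2 had 70.9, 89.5 and 64.7 CPM in Eff+, against 24.3, 22.4 and 27.3 CPM in Eff- libraries, which stood well apart.

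Of the 17 calls given here and in the paragraph above, 7 were CDK inhibitors or growth arrest genes, which slow the cycle. Mcm10, Cks2, Cdc25b, Pttg1 and Hmmr, genes of replication or mitosis, rose as well, and such a share depends on the lists chosen. Of 5 CDK inhibitors tested among 7, 2 rose: Cdkn1b, which encodes p27, with 38.5, 39.0 and 33.4 CPM in Eff+ against 18.0, 14.8 and 15.4 CPM in Eff- libraries (log2 fold change 1.20, SE 0.17, edgeR adjusted p = 0.011), and Cdkn2d, which encodes p19 (1.27, SE 0.30). Over all genes 7.39% were called higher and 3.79% lower, the background for this list and those that follow. Cdkn1a, which encodes p21, had 1573, 1630 and 1720 CPM in Eff+ and 1190, 1144 and 1333 CPM in Eff- libraries and did not pass (0.43, SE 0.17, edgeR adjusted p = 0.14). Of 11 growth arrest genes 5 rose and none fell: Gadd45a (1.88, SE 0.22) and Gadd45b (1.33, SE 0.21), stress-induced partners of PCNA, Sesn2, a stress-induced sestrin (1.77, SE 0.24), and Btg2 (1.65, SE 0.32) and Btg1 (1.01, SE 0.24), which slow proliferation. Gadd45a had 98.3, 112 and 103 CPM in Eff+ against 28.1, 20.9 and 35.8 CPM in Eff- libraries, with no overlap. In the MYC network 2 of 7 genes tested rose, namely Mxd1 (2.06, SE 0.25), a partner of MAX that opposes MYC, and Max (0.77, SE 0.19). Ccnd2, a D cyclin, was the gene that rose among 6 cyclin D and CDK genes (1.29, SE 0.33). None of 17 genes of the RB, E2F and DREAM list was called (median -0.42). The smallest p-values there belonged to E2f2 (0.88, edgeR adjusted p = 0.066) and E2f4 (-0.71, adjusted p = 0.14). These calls changed with the libraries used, as calls over all genes did. Of the 17 genes named as having risen or fallen, 8, 17 and 8 were no longer called without Eff+ library 1, 2 and 3, and 11, 12 and 9 without Eff- library 1, 2 and 3.

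**Figure D4:**
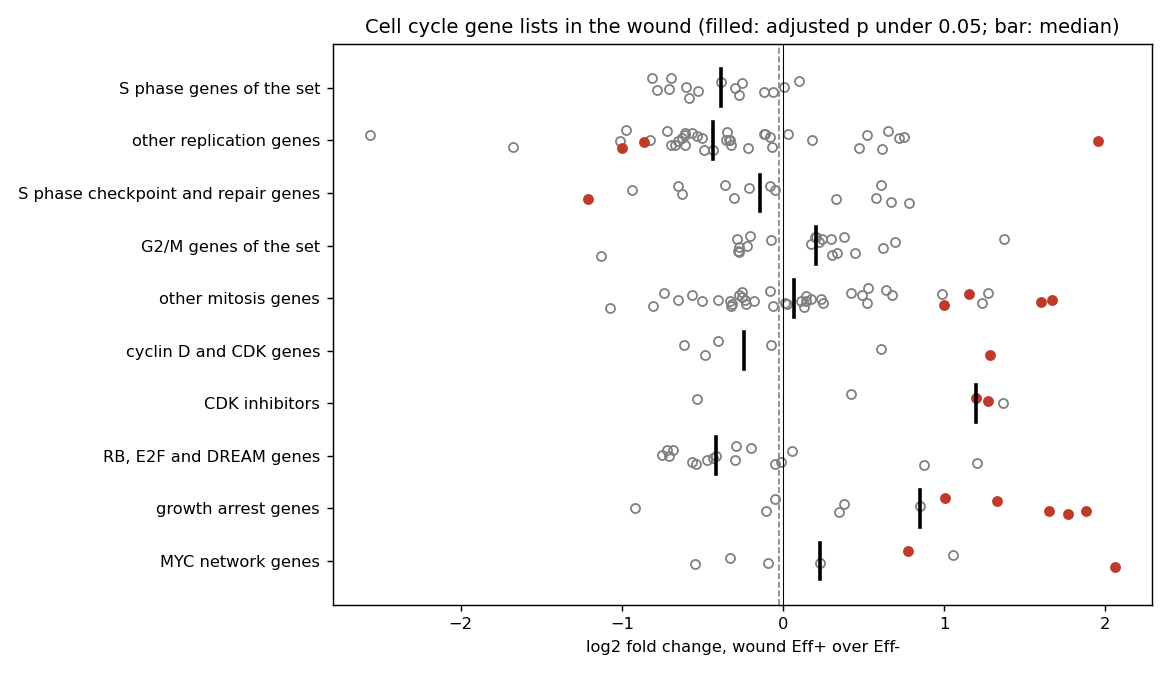
Log2 fold changes of Eff+ over Eff- in wounds for every tested gene of the cell cycle lists, with called genes filled, the median of each list as a bar and that of all genes as a dashed line. The medians were 1.20 for CDK inhibitors, 0.85 for growth arrest genes and -0.44 for other replication genes.

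Markers of other cells differed between the same wound groups. All 16 neutrophil markers were tested, 14 rose, and Camp was at 0 in Eff- library 1 alone. Their summed level was 29524 to 38206 CPM in Eff+ against 3956 to 7525 CPM in Eff- libraries. Early neutrophil precursor markers, from cells that divide, summed to 2.84 to 8.46 CPM in Eff+ and 5.98 to 10.3 CPM in Eff- libraries. Most of this was Prtn3, the 1 marker of the 5 that was tested (log2 fold change -0.60, SE 0.42). It had 7.66, 4.41 and 2.65 CPM in Eff+ against 9.85, 5.75 and 6.79 CPM in Eff- libraries, while Ctsg and Ms4a3 were at or near 0 in both groups. Of 5 stem and progenitor markers 4 had log2 fold changes above 0, and the 5 summed to 22.0 to 43.9 CPM in Eff+ and 17.4 to 30.7 CPM in Eff- libraries. Among them Myb, a transcription factor of dividing blood precursors, had 0.81, 0.62 and 0.58 CPM in Eff+ and 0 in every Eff- library. It passed the filter on low counts through the Eff+ libraries alone, so its call is not used here. Of 14 fibroblast markers 1 rose, and they summed to 969 to 3059 CPM in Eff+ and 288 to 1518 CPM in Eff- libraries. Of 4 keratinocyte markers tested among 10, 2 were called higher, Krt14 and Krt5. Both were at 0 in every Eff- library and passed the filter through the Eff+ libraries alone, so these calls are not used either. The 10 summed to 37.2 to 71.7 CPM in Eff+ and 5.05 to 17.7 CPM in Eff- libraries, in which Krt5, Krt14, Krt1, Krt6a, Krt17, Trp63 and Dsp were at 0. Of 6 muscle markers 1 rose, with sums of 25.2 to 53.6 CPM in Eff+ and 3.64 to 17.7 CPM in Eff- libraries. The part of these cells in the cell cycle values was not tested.

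The same comparison was made in culture, between Eff+ and Eff- macrophages derived from bone marrow. None of the 36 genes passed edgeR's quasi-likelihood test, nor did any of the 14867 genes tested (0% called). At an unadjusted p under 0.05 there were 115 of all genes (0.774%) and none of the 36, and DESeq2 called 2 of all genes and none of the 36. Of the 15 S phase genes 14 had log2 fold changes above 0, with a median of 0.36, and of the 21 G2/M genes 12 lay below 0, with a median of -0.02, beside a median of -0.05 and 53.8% below 0 over all genes. In 7 of the 36 the groups did not overlap, against 20.7% of all genes. Eff+ lay above in Mcm6, Mcm3, Pcna, Cdc6, Gins2 and Aurka (11.3% of all genes), and below in Ccnb2 (9.42% of all genes).

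Pcna had 126 and 128 CPM in culture Eff+ libraries, against 74.4 and 85.9 CPM in culture Eff- libraries (log2 fold change 0.66, 95% interval -0.33 to 1.66). Mcm6 had 205 and 180.0 CPM in Eff+, against 174 and 79.3 CPM in Eff- libraries (0.61, 95% interval -0.80 to 2.01). Eff+ lay above Eff- in both, though Eff- library 1 nearly met the Eff+ values of Mcm6. Cdc6, chosen after its values were seen, had 32.9 and 33.1 CPM in Eff+ and 21.1 and 6.75 CPM in Eff- libraries (1.24, 95% interval -0.39 to 2.88). Rrm2 had 281 and 201 CPM in Eff+ and 399 and 58.5 CPM in Eff- libraries. The Eff- libraries lay on either side of the Eff+ libraries, and its log2 fold change of 0.07 had a 95% interval of -2.36 to 2.51. Rrm1 had 131 and 152 CPM in Eff+ and 137 and 88.1 CPM in Eff- libraries (0.33, SE 0.45). Ccne1 had 49.3 and 43.7 CPM in Eff+ and 56.7 and 23.6 CPM in Eff- libraries (0.21, SE 0.53). Ccne2 had 41.8 and 49.2 CPM in Eff+ and 51.9 and 6.39 CPM in Eff- libraries (0.64, SE 0.96). In these genes, too, Eff- library 1 was above or near the Eff+ values and Eff- library 2 below them. E2f1 kept closer together, with 32.8 and 35.1 CPM in Eff+ and 25.9 and 38.1 CPM in Eff- libraries (0.09, SE 0.40). Tyms, chosen after its values were seen as the S phase gene with a log2 fold change below 0 (-0.74, SE 0.94), had 45.0 and 34.8 CPM in Eff+ and 117 and 16.0 CPM in Eff- libraries.

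Among G2/M genes Mki67 had 80.1 and 115 CPM in culture Eff+ and 111 and 33.2 CPM in culture Eff- libraries (log2 fold change 0.44, SE 0.68). Top2a had 71.4 and 100.3 CPM in Eff+ and 162 and 32.7 CPM in Eff- libraries (-0.18, SE 0.81). Cenpa had 46.7 and 41.1 CPM in Eff+ and 69.6 and 41.9 CPM in Eff- libraries (-0.35, SE 0.43). The widely spread Eff- libraries again enclosed or met the Eff+ values. Ccnb2 differed in that its Eff- libraries were alike, with 35.99 and 53.2 CPM in Eff+ and 66.8 and 67.4 CPM in Eff- libraries (-0.59, SE 0.40). Intervals were wide: 1 of the 36 lay within a 2-fold change either way, 32 reached 2-fold higher and 22 reached 2-fold lower.

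**Figure D5:**
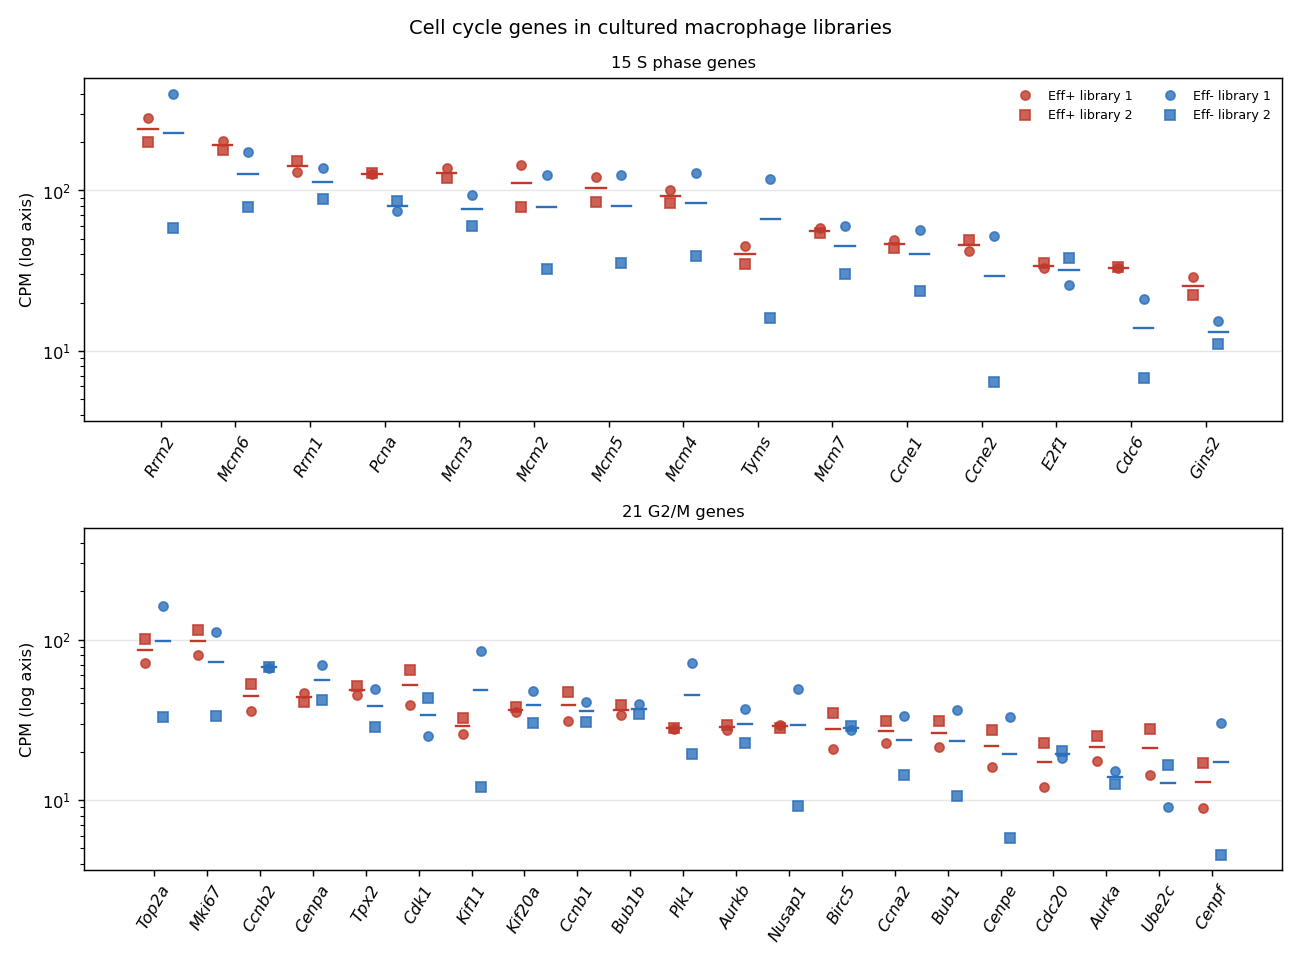
Levels of cell cycle genes in the 4 culture libraries, in CPM on a log axis, with a point for each library (its shape the library number) and a line at each group mean, Eff+ left of Eff- for each gene. Eff- libraries 1 and 2 were far apart for Rrm2, at 399 and 58.5 CPM, and for Ccne2, at 51.9 and 6.39 CPM.

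The values in culture also differed by replicate number. Between the libraries numbered 1, the median log2 ratio of Eff+ over Eff- was -0.04 for S phase genes (7 of 15 above 0) and -0.54 for G2/M genes (3 of 21 above 0). Between those numbered 2, it was 1.07 for S phase genes (14 of 15 above 0) and 0.74 for G2/M genes (19 of 21 above 0). Over all genes the medians were -0.01 and 0.00, with 49.4 and 47.2% of genes above 0. Ratios were above 0 under both numbers for 6 of 15 S phase and 3 of 21 G2/M genes, against 23.4% of all genes, and below 0 under both for none and 2 of them, against 23.8%. S phase sums were 1538 and 1298 CPM in Eff+, against 1605 and 611 CPM in Eff- libraries, and G2/M sums were 664 and 886 CPM in Eff+, against 1057 and 519 CPM in Eff- libraries. Without Eff- library 1 the S phase median log2 fold change was 1.27 and the G2/M median 0.57, and without Eff- library 2 they were 0.20 and -0.08. The difference of medians (S phase minus G2/M) was 0.38, with 0.03 to 0.76 over the leave-one-out fits. Within each library the median log2 level of S phase genes exceeded that of G2/M genes by 1.85 and 1.27 in Eff+, and by 1.22 and 0.63 in Eff- libraries.

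Lists outside the set held no called gene in culture. Of 39 other replication genes 35 had log2 fold changes above 0 (median 0.22, with -0.05 over all genes). Their smallest p-values belonged to Cdt1, which loads the helicase, with 42.5 and 33.1 CPM in Eff+ and 25.6 and 21.2 CPM in Eff- libraries (0.69, SE 0.39), and to Rfc3, a clamp loader subunit (0.62, SE 0.39). Of 40 other mitosis genes 27 lay above 0 (median 0.04), and the 2 of smallest p, Kif15, a mitotic kinesin (-0.98, SE 0.82), and Ncapd2, a condensin subunit (-0.58, SE 0.51), lay below it. Among CDK inhibitors Cdkn1b had 16.7 and 9.10 CPM in Eff+ and 71.1 and 20.3 CPM in Eff- libraries (-1.83, SE 0.74), and Cdkn1a had a log2 fold change of -0.68 (SE 0.47). Among growth arrest genes Btg2 had 129 and 149 CPM in Eff+ and 473 and 584 CPM in Eff- libraries (-1.93, SE 0.49, edgeR adjusted p = 1.0), and Btg1 had -1.20 (SE 0.61). Mycl (-4.34, SE 1.46) and Mxd1 (-0.56, SE 0.36) had the smallest p-values of the MYC network, Ccnd3 (-0.60, SE 0.39) and Ccnd2 (-1.22, SE 0.81) of the cyclin D list, E2f2 (-0.82, SE 0.40) and Lin9 (0.52, SE 0.45) of the RB, E2F and DREAM list, and Exo1 (0.83, SE 0.73) and Rad51ap1 (0.66, SE 0.66) of the checkpoint list. None of these passed. Mycl was low outside Eff- library 1, with 0.27 and 0.12 CPM in Eff+ and 7.45 and 0.73 CPM in Eff- libraries. In the same libraries 9 dendritic cell markers summed to 24.4 to 58.5 CPM in Eff+ and 200.4 to 495 CPM in Eff-. The 14 fibroblast markers summed to 9.82 to 236 CPM in Eff+ and 25.4 to 47.4 CPM in Eff-. The 16 neutrophil markers summed to 1662 to 3103 CPM in Eff+ and 1268 to 3665 CPM in Eff-. That sum was mostly Mmp8, with 1548 and 3036 CPM in Eff+ and 1025 and 3438 CPM in Eff- libraries. Of the 12 neutrophil markers tested, 11 had log2 fold changes below 0 and 1 above (median -1.65). Of 5 stem and progenitor markers, genes of dividing precursors, the 4 tested had log2 fold changes below 0 (median -2.18), and the 5 summed to 3.20 to 24.2 CPM in Eff+ and 7.27 to 101 CPM in Eff-. Their part in the cell cycle values was not tested.

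Whether the Eff+ against Eff- difference itself differed between wounds and culture was tested in a single fit over the 10 libraries. None of the 36 genes passed, nor did any of the 20270 genes tested (0% called, 11.0% at an unadjusted p under 0.05). Over all genes the count depended on the fit, with 785 under DESeq2 (5.62% of those given an adjusted p), 517 without the filter on low counts (1.09%) and 2009 without culture Eff- library 2 (8.50%), and none of the 36 was called in these fits. The wound effect minus the culture effect had a median of -0.93 over S phase genes (13 of 15 below 0), 0.12 over G2/M genes and 0.32 over all genes (41.4% below 0). At an unadjusted p under 0.05 there were 3 of the 36. They were Mcm3 at -1.42 (SE 0.46, edgeR adjusted p = 0.31), Mcm6 at -1.41 (SE 0.51, adjusted p = 0.35) and Pcna at -0.94 (SE 0.35, adjusted p = 0.37). For each of the 3, wound Eff+ cells had the lower mean and culture Eff+ cells the higher mean of their pair.

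Levels in culture and in wounds are set side by side without a test, since the tables were counted and scaled apart. For 34 of the 36 genes every culture library lay above every wound library, against 32.4% of 13091 genes tested in both, and the exceptions were Cenpa and Pcna. For none did every culture library lie below, against 7.29% of all genes. The ratio of culture to wound means had a median of 6.28 over S phase genes and 7.66 over G2/M genes, beside 1.64 over all genes. It ran between 1.51 for Pcna and 24.2 for Rrm2. Mki67 had 33.2 to 115 CPM in culture and 16.5 to 26.3 CPM in wounds. Ccne1 had 23.6 to 56.7 CPM in culture and 1.67 to 3.46 CPM in wounds. Per kilobase of exon, Rrm2 had the highest level of the set in culture, at 84.8 CPM per kb. The labels give no cell counts or cycle measurements, and tissue, genotype, growth factor and time cannot be told apart between the tables.

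Counting limits a few of these genes. Of the 36, 10 share exon bases with another annotated gene: 67.3% of the exon length of Gins2 with Gse1, 29.3% of Kif20a with Cdc23, 22.8% of Ube2c with Tnnc2, 17.4% of Ccne2 with Ints8 and 12.5% of Ccna2 with Exosc9, all on the opposite strand, and less than these for the other 5. Without strand, a read on bases shared across strands cannot be assigned to either gene of the pair. No source used here says how the culture table treated such reads. Since no label ties replicates to separate animals or cultures, the spread behind the p-values is that of these samples alone and may be technical.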

How the data were processed

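Polyadenylated RNA of 10 libraries was sequenced, and the tables as deposited hold raw counts of reads by gene. The authors used featureCounts 1.6.0 for the wound table, at default settings without a strand option and on the Ensembl 106 annotation of GRCm39, per the file headers. Read trimming with Trimmomatic 0.39 comes from the submitters' processing notes. No source used here gives the aligner or how the culture table was counted. The culture table has 4 more columns that fit no sample's labels, and these were left out. GENCODE vM21 names covered 52081 of 55414 identifiers, and 1 gene of the comparison lists, Lin54, matched none. Promoter windows are RefSeq's on GRCm38.p6.

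Groups came from sample titles. Each table was fitted in edgeR 4.0.16 (R 4.3.3) with TMM scaling, filterByExpr and quasi-likelihood testing (Eff+ over Eff-), with Benjamini-Hochberg adjustment over all genes and a threshold of 0.05. A fit over the 10 libraries tested the difference of the effects. The SE is the size of the log2 fold change over the square root of its F statistic, and 95% intervals use the t distribution at the fit's degrees of freedom. Ratios by replicate number and library medians of log2 levels used 0.5 CPM added to each value. DESeq2 1.42.0, other scalings, no filter, a replicate block and leaving out libraries were alternatives, and the procedure was tested on simulated counts. Pairs of replicates differed by more than sampling noise (chi-square per degree of freedom 78.9 to 460).

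The genes and lists were chosen with earlier results of these data known. Values in every library are given for called genes of the set, for the 4 S phase and 4 G2/M genes of highest mean CPM in a table, and for Mki67, Top2a, Pcna, Ccne1, Ccne2 and E2f1, and other genes so given are marked in the text. Of each other list up to 3 called genes per direction of smallest p are named, or the 2 of smallest p where none was called, and Hmmr, Btg1, Btg2 and Cdkn1a were added after their values were seen. A gene that the rule names is not reported here.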

Additional observations from a re-analysis of the deposited data

How the results depend on the processing

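The count of called genes among the 36 in wounds was 0 in the fit reported, against 11.2% of all genes. It was 5 with library totals only (22.6% of all genes), 1 without the filter (Mcm6, 7.04%) and 2 under DESeq2 (22.3%). With the replicate block it was 2 (Mcm6 and Bub1b, 20% of all genes), and with relative log expression scaling 0 (10.6%). With a library left out it was 0 to 2 (0 to 8.53%). The counts in culture and for the difference of the effects were 0 under every alternative run. Same-numbered wound libraries correlated at 0.41, 0.017 and 0.23 in their deviations from group means, and Eff+ 2 correlated best with Eff- 3 (0.15). Same-numbered culture libraries correlated at 0.74 and differently numbered ones at -0.74. With 2 libraries a group the deviations mirror each other, so these amount to a single value. Labels do not say whether numbers pair the samples, and the fits reported did not pair them. In culture the replicate block moved the S phase median to 0.63 and the G2/M median to 0.12. With the block edgeR called 2985 genes in wounds, against 1666, 48 in culture, against 0, and 441 for the difference of the effects, against 0. Without Eff+ library 2 edgeR called 0 of all wound genes (3260 at an unadjusted p under 0.05), and without Eff- library 1, 2 or 3 it called 451, 189 and 901. Of 720 alternative values of single genes 585 kept direction and side of the threshold, 90 lost a call, 16 gained one and 29 changed direction. No culture gene was called in the fit reported, so keeping the side of the threshold says little for culture values. Log2 fold changes that changed sign in wounds were Top2a (-0.058) and Ccnb1 (-0.17) with library totals only, and Cenpa (0.10), Ccnb2 (0.26), Rrm1 (0.056), Ccne2 (0.074) and Cdk1 (0.35) without both libraries numbered 2. In culture they were Rrm2 (-0.023 with relative log expression, -0.24 with totals only, -0.023 under DESeq2), Ccne1 (-0.025 with totals only) and Top2a (0.27 without the filter, 0.21 with the replicate block). With a library left out, wound values ran between -0.15 and 0.95 for Ccnb1, -0.59 and 0.015 for Ccnb2, -0.53 and 0.10 for Cdk1, -0.60 and 0.0041 for Cenpa, -0.48 and 0.062 for Rrm1, and -0.13 and 0.99 for Top2a. Culture values, where a group of 1 library borrows its spread from the group of 2, ran between -1.65 and 0.36 for Ccnd2, -0.40 and 0.10 for Cenpa, -0.13 and 0.68 for E2f1, -1.43 and 0.63 for Kif15, -0.75 and 0.14 for Ncapd2, -0.44 and 2.08 for Rrm2, -0.62 and 1.43 for Top2a, and -1.27 and 1.35 for Tyms. The S phase median in culture was 0.12 with totals only and 0.77 without the filter, and the G2/M median -0.20 and 0.27. Causes of these shifts were not tested. Precision is limited by 2 or 3 libraries a group and low counts: the lowest of the 36 had 6 counts in a wound library.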
